A study of Mus musculus with 6 samples.

Results

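The genes described here are 42 genes of DNA replication and mitosis, read in mouse pulmonary arterial smooth muscle cells (PASMCs) that were given bone morphogenetic protein 9 (BMP9) together with BMP10, and in cells that were not. They are a fixed list of gene symbols, each matched through GENCODE M21 (mm10) to 1 row among the 21785 gene rows of the deposited table, and all 42 passed the filter on low values. They were split into 22 genes of the passage from G1 into S phase and of DNA synthesis (G1/S members) and 20 genes of G2 and mitosis (G2/M members). The stimulated group (BMP_stim, n = 3) received BMP9 at 1 ng/mL and BMP10 at 5 ng/mL for 6 h, and the control group (CTRL, n = 3) received neither. Cells of both groups were outgrowths from C57BL/6 mouse lung whose vessels had been loaded with iron particles in agarose. They were then kept for 48 h in medium without supplements. The sources used here do not give the age or sex of the mice, or say whether the 3 samples of a group are separate cultures or separate animals. The spread behind each p-value may therefore be technical.

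A dividing cell first raises the cyclin E genes and the E2F factors, which turn on the enzymes that make deoxynucleotides and the proteins that load and move the MCM helicase at replication origins. Several hours later it raises a separate group of genes, read mainly in G2 and mitosis, whose products condense chromosomes, build the spindle and let the cell divide. In cultured vascular smooth muscle cells, withdrawal of serum or growth supplements lowers both groups, and growth factors bring them back in that order. BMP9 and BMP10 circulate in blood and signal through SMAD proteins.

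The libraries were total RNA, and the deposited values are read counts scaled by 1 factor per library and rounded. Library sums ran between 27295973 and 31903795. Whole numbers that are skipped or doubled in a column gave an estimate of 23300000 to 54400000 reads a library, with the most in stimulated replicate 3 (28000000 or fewer in the other 5). Smooth muscle markers were present in every library (Acta2, smooth muscle actin, at 69094, 153164 and 105332 in stimulated samples 1, 2 and 3 and 23470, 37627 and 32172 in control samples 1, 2 and 3). So were markers of macrophages (Cd68 between 4531 and 10123), of endothelium (Cdh5 between 2104 and 12615) and of fibroblasts (Pdgfra between 3983 and 12719), while the 6 tested lymphoid and red cell markers were at 17 or less. In control samples 1, 2 and 3, the smooth muscle markers summed to 44482, 66892 and 62783. Sums were 14083, 50246 and 16045 for endothelial, 175814, 167015 and 101514 for macrophage and 298156, 415073 and 345111 for fibroblast markers. Pericyte markers summed to 22234, 32183 and 23042, and epithelial and mesothelial markers to 9391, 39603 and 10211. In stimulated sample 2 the smooth muscle sum (201403) exceeded the macrophage sum (150258). Sums over different genes are not shares of cells. Markers of several cell types were thus read in these cultures, and in bulk RNA fewer cells of a type and less RNA per cell cannot be told apart. Levels below are normalized read counts, changes are differences of log2(value + 1), stimulated minus control, with the standard error (SE), and p-values are from limma with Benjamini-Hochberg adjustment over the 21743 genes tested. A call is an adjusted p under 0.05.

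Without pairing of the samples, the calls after stimulation were a few S-phase genes; the difference between the G1/S and G2/M members was not tested. Of the 42 members 3 rose, all of them G1/S members: Mcm6, a subunit of the replication helicase, Tyms, the thymidylate synthase gene, and Cdc25a, the phosphatase gene that releases CDK2 from inhibition. No member fell, and none of the 20 G2/M members passed in either direction. With limma, and with limma-voom, 0 of the 20 had an unadjusted p under 0.05. The 3 calls are 7.14% of the members and 13.6% of the G1/S members, while 13.4% of all genes tested were called (8.61% higher and 4.75% lower), so the share of the members was below that of all genes. Among the 14217 genes that passed a stricter filter on low values, as all 42 members did, 22.9% were called. With library totals made equal, a scaling under which the median of all genes moved to -0.20 (-0.03 as deposited), the same 3 members rose and 1, the G1 kinase gene Cdk4, fell, against 15.6% of all genes called (5.22% higher and 10.4% lower).

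The samples of both groups carry the same numbers. Over 13185 genes with a mean of 50 or more, same-numbered samples deviated together, though weakly for number 3 (r = 0.218). Each stimulated sample was therefore also set against its own-numbered control. In a limma fit with the replicate number as a block, 9 of the 42 members rose and none fell (21.4%, against 26.8% of all genes tested, of which 14.9% were higher and 12% lower). The G1/S members that rose were Mcm6, Rrm2, Tyms, Cdc25a, Ccne2, Mcm4 and Rrm1, which make 7 of 22. The G2/M members were Aurka and Bub1, 2 of 20. With equal totals and the block, 6 members rose (Mcm6, Rrm2, Tyms, Cdc25a, Ccne2 and Aurka), and 3 fell (E2f1, Cdk4 and Mcm7), against 32% of all genes called (9.39% higher and 22.6% lower). Scaling thus moved some paired calls, while 6 of the 9 rises were called under both scalings.

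**Figure D1:**
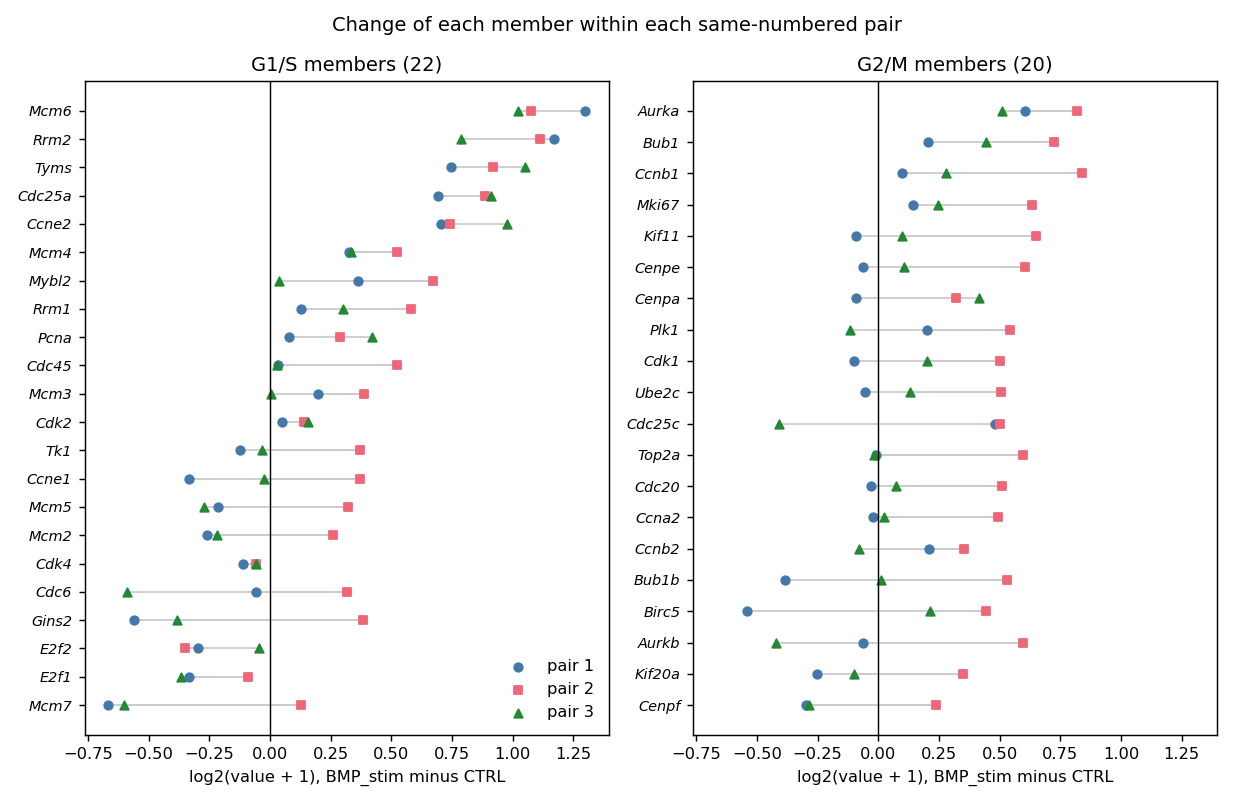
Change of each of the 42 members within each same-numbered pair, as the difference of log2(value + 1), stimulated minus control, for G1/S members on the left and G2/M members on the right, ordered by mean change. Blue circles are pair 1, red squares pair 2 and green triangles pair 3; Mcm6, Rrm2, Tyms, Cdc25a and Ccne2 lie above 0.69 in every pair, and all 20 G2/M members lie above 0 in pair 2.

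Promoter sequences are shown because some motifs differ in frequency between the G1/S and the G2/M members, on grounds other than these measurements. E2F factors bind sites such as TTTCCCGC, TTTGGCGC, TTTCGCGC and TTTGCCGC, and the cell cycle homology region (CHR, TTTGAA) is a site found in genes of G2 and mitosis. Both were searched on both strands in RefSeq promoter windows (GRCm38.p6) from 250 bases before to 50 bases after a start, which were available for 35 of the 42 members. An E2F-type match lay in 8 of 19 G1/S members and 1 of 16 G2/M members, and in 2.26% of 32851 windows in all. A member with more than 1 window was counted if any of them held a match. The CHR letters lay in 3 of 19 G1/S members and 12 of 16 G2/M members, against 17.9% of all windows, and CCAAT, which is bound by NF-Y, lay in 12 of 19 and 15 of 16, against 37.4%. No motif contains another, and matches of different motifs overlapped in 1 of the 37 member windows. Windows of Mcm6 (chr1:128359656-128359955, minus strand) and Cdc25a (chr9:109875329-109875628, plus strand), which rose with and without the block, are given with E2F-type matches in capitals. Those of Aurka (chr2:172370521-172370820, minus strand) and Mki67 (chr7:135716330-135716629, minus strand) have the CHR letters in capitals. Aurka rose with the block only, and Mki67 was not called.
Mcm6: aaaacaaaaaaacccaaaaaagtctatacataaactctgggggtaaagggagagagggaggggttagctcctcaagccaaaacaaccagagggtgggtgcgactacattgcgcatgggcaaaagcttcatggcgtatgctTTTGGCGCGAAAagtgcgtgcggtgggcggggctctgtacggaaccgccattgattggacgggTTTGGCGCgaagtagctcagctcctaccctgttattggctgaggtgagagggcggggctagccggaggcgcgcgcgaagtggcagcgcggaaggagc
Cdc25a: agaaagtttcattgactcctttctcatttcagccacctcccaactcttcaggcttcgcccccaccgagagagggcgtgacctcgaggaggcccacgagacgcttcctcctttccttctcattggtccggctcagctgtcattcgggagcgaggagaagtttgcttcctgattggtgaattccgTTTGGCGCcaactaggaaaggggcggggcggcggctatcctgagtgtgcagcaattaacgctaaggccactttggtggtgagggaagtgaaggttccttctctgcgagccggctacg
Aurka: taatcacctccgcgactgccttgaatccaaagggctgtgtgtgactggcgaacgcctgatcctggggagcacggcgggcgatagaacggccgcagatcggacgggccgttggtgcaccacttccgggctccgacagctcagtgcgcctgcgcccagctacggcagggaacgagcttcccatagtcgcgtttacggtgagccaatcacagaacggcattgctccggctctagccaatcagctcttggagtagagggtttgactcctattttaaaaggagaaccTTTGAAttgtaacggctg
Mki67: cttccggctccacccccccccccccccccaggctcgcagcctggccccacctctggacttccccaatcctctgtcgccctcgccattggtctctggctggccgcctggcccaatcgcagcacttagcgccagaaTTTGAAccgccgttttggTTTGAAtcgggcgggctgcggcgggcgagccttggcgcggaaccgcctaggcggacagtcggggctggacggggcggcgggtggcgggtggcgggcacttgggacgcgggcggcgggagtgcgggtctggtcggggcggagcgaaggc
The Mcm6 window holds 3 E2F-type matches, of which the first and second overlap in 1 run of capitals. An E2F-type match was found in 2 of the 5 G1/S members with a window that rose in the paired fit, and in 6 of the 14 that did not. The window of Tyms, which also rose, held none.

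The MCM2 to MCM7 proteins form the ring-shaped helicase that is loaded on origins in G1. Changes of their 6 genes ran from 1.13 for Mcm6 to -0.38 for Mcm7. Differences between these genes were tested only by the ratios given below. All 6 were higher in the stimulated sample of pair 2, and all were highest in replicate 2 and lowest in replicate 1 of both groups. Mcm6 (ENSMUSG00000026355, chromosome 1 from 128331590 to 128359664 on the minus strand of mm10) stood at 3385, 4310 and 3713 in stimulated samples 1, 2 and 3, against 1375, 2042 and 1829 in control samples 1, 2 and 3. Every stimulated sample lay above every control sample. Mcm6 rose by 1.13 ± 0.16 (SE) on the log2 scale (limma adjusted p = 0.00698, and 0.000241 with the block). It was the only member whose call held in each of the 6 fits that left out 1 library. The call was lost without both replicate 1 libraries (limma adjusted p = 0.0609) or both replicate 3 libraries (0.216). With the block it was lost without pair 3 (limma adjusted p = 0.0978). Mcm4 stood at 1107, 1573 and 1376 in stimulated samples, against 883, 1095 and 1093 in controls, again without overlap. Its change was 0.39 ± 0.15 (limma adjusted p = 0.147), and it passed with the block (0.011) but not with equal totals and the block (0.0569).

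The other MCM genes had smaller or opposite changes and overlapped between groups. Mcm3 averaged 892 ± 410 (SD) in stimulated and 758 ± 256 in control samples, with pair changes of 0.20, 0.39 and 0.00. Mcm2 was at 615, 1025 and 710 in stimulated samples, against 737, 856 and 825 in controls, a change of -0.07 ± 0.19 (limma adjusted p = 0.845). Mcm2, Mcm5 and Mcm7 were each lower in the stimulated sample of pairs 1 and 3 and higher in that of pair 2. Mcm7 averaged 827 ± 368 in stimulated and 1018 ± 125 in control samples (limma adjusted p = 0.435 for a change of -0.38 ± 0.28), and its pair changes were -0.67, 0.13 and -0.60. Without stimulated replicate 2, Mcm7 was called lower (limma adjusted p = 0.0368). Per kb of exon, the Mcm6 level was 5.71, 3.28 and 5.24 times that of Mcm7 in stimulated samples, against 1.46, 1.70 and 1.70 times in controls. Ratios of Mcm6 to each of the other 5 subunit genes were higher in all stimulated samples than in any control sample. A two-sided exact permutation test gives p = 0.1 for each, the smallest that 3 against 3 samples allow (adjusted p = 0.114 over 8 ratios by the exact permutation test). The first gene of each of the 8 ratios was a member that rose in the paired fit, so the ratios give no separate support. The permutation did not use the pairing.

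**Figure D2:**
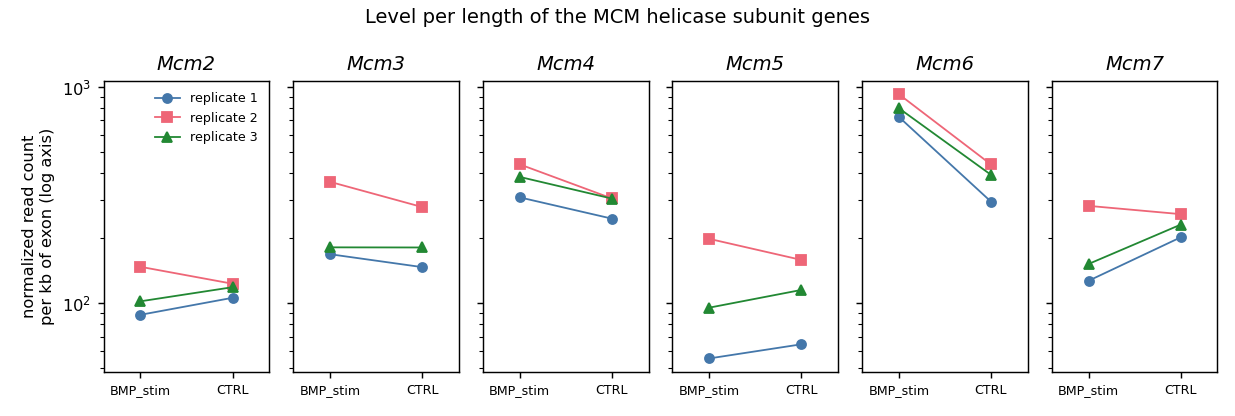
Level of the 6 MCM helicase subunit genes in normalized read counts per kb of exon, on a log axis shared by the panels, with stimulated samples on the left and control samples on the right and lines joining same-numbered samples. Mcm6 was higher in all stimulated samples than in any control sample, as was Mcm4 by a smaller margin, while the lines of Mcm2, Mcm5 and Mcm7 run in both directions.

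Other genes of origin loading and of the replication fork showed no call. Cdc6, which loads the MCM ring, was at 74, 197 and 88 in stimulated samples, against 77, 158 and 133 in controls. Cdc45 and Gins2, whose products join the ring to make the active helicase, had differences of 0.20 ± 0.24 and -0.19 ± 0.20. Opposite-strand exons of Gse1 overlap 67.3% of the exonic length of Gins2, and since the strand setting of the counting is not given, its level is uncertain. Pcna, the sliding clamp of the polymerases, stood at 1816, 2421 and 2071 in stimulated samples, against 1720, 1980 and 1547 in controls. Pcna was higher in the stimulated sample of every pair, by 0.08, 0.29 and 0.42, yet passed neither without (limma adjusted p = 0.263) nor with the block (0.0588).

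The genes that supply deoxynucleotides included 3 of the rises of the paired fit. Tyms, which makes thymidylate, stood at 586, 857 and 733 in stimulated samples, against 349, 453 and 353 in control samples. The groups did not overlap, and Tyms rose by 0.91 ± 0.18 (limma adjusted p = 0.0186, and 0.00115 with the block). That call was lost without stimulated replicate 3 (adjusted p = 0.0892), control replicate 1 (0.0763) or control replicate 3 (0.0803). Rrm2, the regulated small subunit of ribonucleotide reductase, stood at 766, 1788 and 1139 in stimulated samples, against 340, 827 and 660 in controls. Its lowest stimulated value lay under its highest control value, but each stimulated sample was above its own-numbered control, by 1.17, 1.11 and 0.79. The change of 1.02 ± 0.40 did not pass limma without the block (adjusted p = 0.146) and passed with it (0.000838). Rrm1, the large subunit, averaged 3605 ± 1087 in stimulated and 2786 ± 404 in control samples, and passed only in the paired fit of the deposited values (limma adjusted p = 0.0396, and 0.163 with equal totals). Tk1, thymidine kinase 1, which salvages thymidine, had 98, 390 and 167 in stimulated samples, against 107, 301 and 171 in controls, so that the salvage gene did not share the change of Tyms and Rrm2 in pairs 1 and 3.

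Among the cyclins, kinases and phosphatases of the G1/S step, Cdc25a and Ccne2 stood out. Cdc25a was at 524, 773 and 649 in stimulated samples, against 324, 418 and 345 in controls, without overlap. It rose by 0.83 ± 0.17 (limma adjusted p = 0.024, and 0.0014 with the block), a call lost without stimulated replicate 2 (0.0563) or 3 (0.102) or control replicate 1 (0.0912) or 3 (0.0938). Ccne2 and Ccne1 encode the E-type cyclins, which activate CDK2 for entry into S phase. Ccne2 stood at 206, 394 and 314 in stimulated samples, against 126, 235 and 159 in controls, higher in every pair by 0.70, 0.74 and 0.98. It passed limma with the block (adjusted p = 0.00392) and not without it (0.135), and opposite-strand exons of Ints8 overlap 17.4% of its exonic length. Ccne1 was at 280, 426 and 355 in stimulated samples, against 353, 329 and 361 in controls, with pair changes of -0.33, 0.37 and -0.02 and a 95% interval of -0.34 to 0.35 with the block. Per kb of exon, the ratio of Ccne2 to Ccne1 was 0.560, 0.704 and 0.674 in stimulated samples, against 0.272, 0.544 and 0.335 in controls. These ratios did not overlap (two-sided exact permutation p = 0.1), but Ccne2 was itself a member that rose in the paired fit.

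Neither kinase gene of the G1/S step was called in the deposited values. Cdk4, the partner of the D-type cyclins, had the highest level per length of all members, at 2376 per kb in stimulated and 2506 per kb in control samples. It stood at 7733, 7771 and 7654 in stimulated samples, against 8363, 8086 and 7975 in controls, so that the groups did not overlap although they differed by only -0.08 ± 0.07 (limma adjusted p = 0.498). With equal totals its change was -0.25 (adjusted p = 0.0426), close to the -0.20 of the median gene on that scale, and opposite-strand exons of Tspan31 overlap 19.7% of its exonic length. Cdk2 averaged 654 ± 152 in stimulated and 602 ± 127 in control samples. In all, 5 of the 42 members had groups that did not overlap, Mcm6, Tyms, Cdc25a and Mcm4 higher and Cdk4 lower, against 33.2% of all genes tested (17.8% higher and 15.4% lower).

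None of the transcription factors on the list was called in the deposited values. E2f1, an activator of S-phase genes, stood at 841, 650 and 763 in stimulated samples, against 1060, 692 and 985 in controls, and was lower in each pair by -0.33, -0.09 and -0.37. It did not pass in the deposited values (limma adjusted p = 0.398, and 0.0668 with the block) and was called lower with equal totals and the block (0.0084). E2f2, a related activator, was low throughout, at 82, 101 and 64 in stimulated samples, against 101, 129 and 66 in controls. Mybl2, the B-Myb gene, averaged 94.0 ± 61.7 in stimulated and 69.7 ± 34.1 in control samples.

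**Figure D3:**
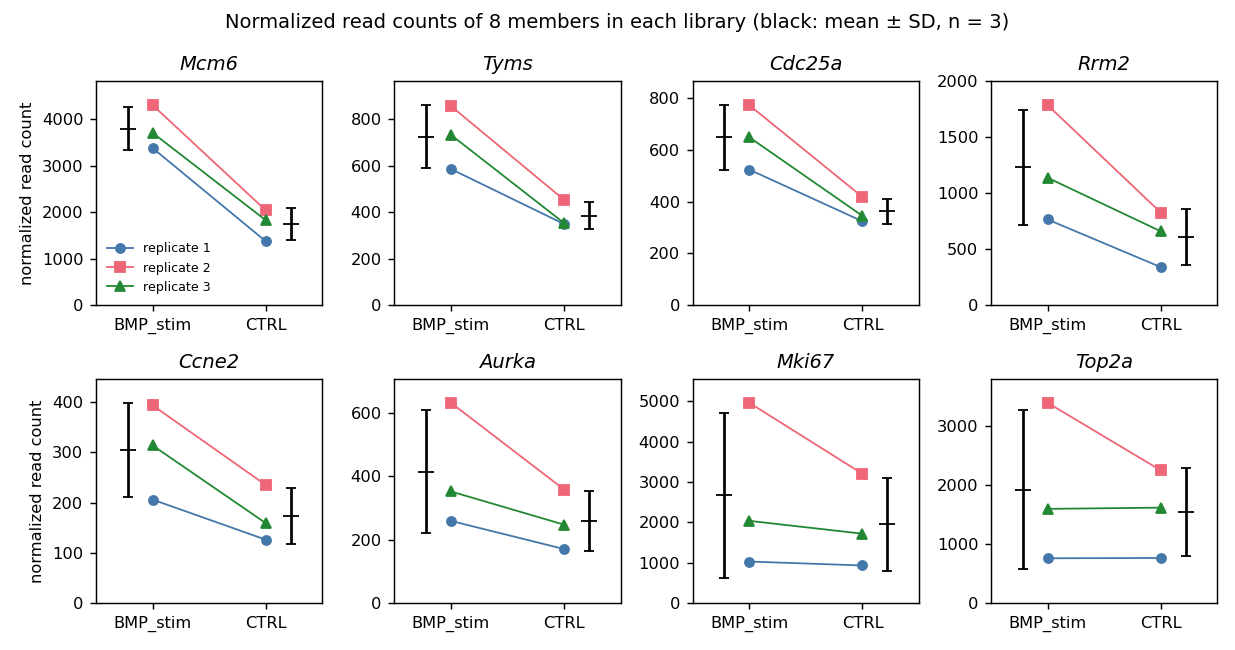
Normalized read counts of 8 members in each library, stimulated samples on the left and control samples on the right of each panel, with lines joining same-numbered samples and black bars giving mean ± SD (n = 3). Mcm6, Tyms and Cdc25a do not overlap between groups, Rrm2, Ccne2 and Aurka overlap but are higher in the stimulated sample of every pair, and Mki67 and Top2a differ more between replicate numbers than between groups.

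The G2/M members were higher in replicate 2 than in the other replicates of either group. Mki67, the proliferation marker Ki-67, stood at 1026, 4966 and 2036 in stimulated samples 1, 2 and 3, against 929, 3203 and 1717 in control samples 1, 2 and 3. Top2a, the topoisomerase that untangles sister chromatids, stood at 757, 3395 and 1595 in stimulated samples, against 762, 2248 and 1616 in controls. The values of replicates 1 and 3 are nearly equal between groups for Top2a, and only replicate 2 parts them. Without the block, the change of Mki67 was 0.34 ± 0.63 (limma adjusted p = 0.773) and that of Top2a 0.19 ± 0.59 (0.871). The 95% intervals of that fit were -1.16 to 1.84 for Mki67 and -1.20 to 1.58 for Top2a. With the block, the 95% interval was 0.09 to 0.59 for Mki67 (limma adjusted p = 0.0518) and -0.12 to 0.50 for Top2a (0.331). A change of 1 on the log2 scale lies outside both intervals with the block and inside both without it.

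No mitotic cyclin gene was called, nor was that of their kinase. Ccnb1, cyclin B1, was at 107, 536 and 231 in stimulated samples, against 100, 299 and 190 in controls, and Cdk1, its kinase, at 464, 1319 and 786, against 498, 932 and 684. Both overlapped between groups, with changes of 0.41 ± 0.62 for Ccnb1 and 0.20 ± 0.39 for Cdk1 (limma adjusted p = 0.72 and 0.785). Ccna2 (cyclin A2) and Ccnb2 (cyclin B2) had differences of 0.17 ± 0.64 and 0.16 ± 0.54. Cdc25c, which activates CDK1, was the least abundant member of the class per length, at 17.3 per kb in stimulated and 15.0 per kb in control samples.

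Of the mitotic kinases, Aurka showed the most regular difference. Aurka, the Aurora A kinase of the spindle poles, stood at 259, 632 and 352 in stimulated samples, against 170, 358 and 247 in controls. Each stimulated sample exceeded its own-numbered control, by 0.60, 0.82 and 0.51, although the groups overlapped. The change of 0.64 passed limma with the block (adjusted p = 0.00666, and 0.0172 with equal totals) and not without it (SE 0.38, adjusted p = 0.322). Its relative Aurkb, the kinase of the chromosomal passenger complex, stood at 66, 330 and 102 in stimulated samples, against 69, 218 and 137 in controls, with pair changes of -0.06, 0.60 and -0.42. The ratio of Aurka to Aurkb per kb of exon overlapped between groups (two-sided exact permutation p = 0.2). Bub1, a kinase of the spindle checkpoint, was at 134, 500 and 294 in stimulated samples, against 116, 302 and 216 in controls, and passed narrowly with the block (limma adjusted p = 0.0485) but not with equal totals (0.139).

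The remaining G2/M members had no call in any of these fits. They are the checkpoint kinase gene Bub1b and the mitotic kinase gene Plk1, the passenger protein gene Birc5 (survivin), and the kinesin genes Kif11 and Kif20a, which push spindle poles apart and act in cytokinesis. The centromere genes Cenpa, Cenpe and Cenpf complete them, with Cdc20 and Ube2c, which work with the anaphase-promoting complex. Their differences ran between -0.11 for Cenpf and 0.22 for Kif11, with SEs of 0.47 to 0.65 without the block and 0.13 to 0.19 with it. Opposite-strand exons overlap 29.3% of the exonic length of Kif20a and 22.8% of that of Ube2c.

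The mitotic genes kept 1 order over the replicate numbers. All 20 G2/M members were highest in replicate 2, next in replicate 3 and lowest in replicate 1, in both groups, against 11.4% of all genes tested with that order and 22.7% that were highest in replicate 2 of both groups. Among G1/S members 16 of 22 had that order, the exceptions being Ccne1, Cdk4, E2f1, E2f2, Gins2 and Pcna. Replicate 2 stood above replicate 1 by a median of 3.96-fold over the G2/M members in stimulated samples and 2.96-fold in controls, and over the G1/S members by 1.66-fold and 1.29-fold. The median SE of a change fell to 0.13 with the block, against 0.57 without it, for G2/M members, and to 0.11 against 0.22 for G1/S members. Over all genes it was 0.17 with and 0.25 without the block.

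Markers of other cells moved with the same numbers. Replicate 2 of each group had the highest value of every one of the 15 endothelial markers, and their summed level was 12899, 51509 and 21203 in stimulated samples 1, 2 and 3 and 14083, 50246 and 16045 in control samples 1, 2 and 3. The summed level of the G2/M members was 5284, 21652 and 10244 in stimulated samples and 5345, 14787 and 9602 in controls. Fibroblast genes had that pattern for 7 of 11 markers, pericyte markers for 7 of 9, epithelial and mesothelial markers for 10 of 14, smooth muscle markers for 4 of 10 and macrophage markers for 1 of 14. The part of these cells in the levels of the replication and mitosis genes was not tested.

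**Figure D4:**
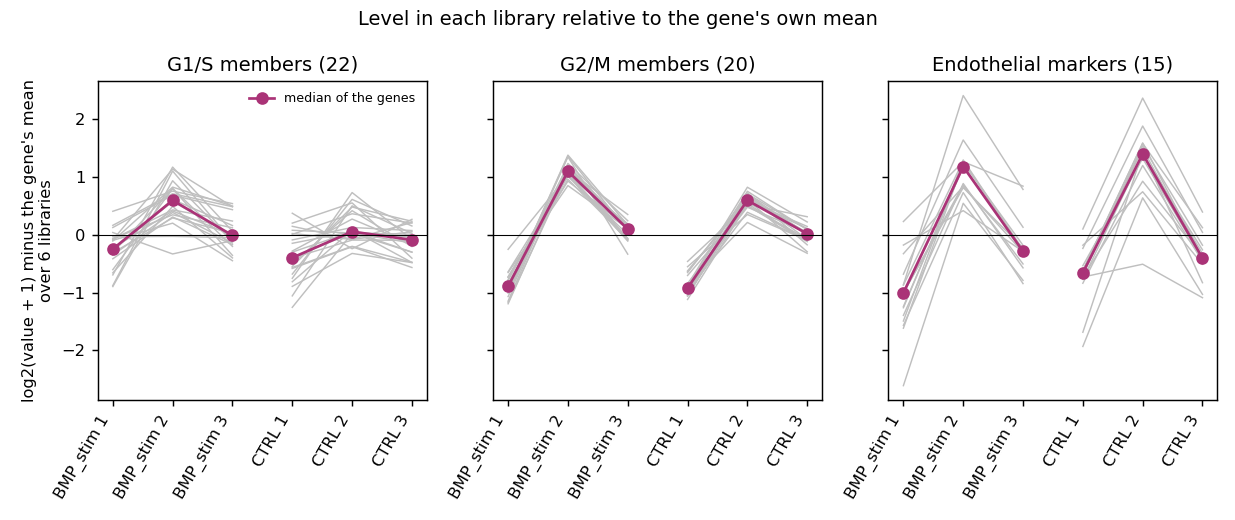
Level of each gene in each library as log2(value + 1) minus the gene's own mean over the 6 libraries, for 22 G1/S members, 20 G2/M members and 15 endothelial markers, with stimulated samples on the left of each panel. Grey lines join the libraries of 1 gene within a group and purple points are the median of the genes; replicate 2 of each group holds the highest value of all 20 G2/M members and all 15 endothelial genes.

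More members were higher in the stimulated sample in pair 2 than in pair 1 or pair 3. In pair 2 the stimulated sample was higher for all 20 G2/M members and 19 of 22 G1/S members, with median changes of 0.52 and 0.38, while 45.4% of all genes tested were higher. In pair 1, 7 G2/M and 12 G1/S members were higher (medians -0.04 and 0.04), and in pair 3, 13 and 12 (medians 0.09 and 0.02), against 46.3% and 48.7% of all genes tested. With 1 stimulated and 1 control sample in each pair, the difference between pairs was not tested. Among markers, the stimulated sample of pairs 1, 2 and 3 was higher for 13, 2 and 14 of 14 macrophage genes and for 8, 9 and 6 of 10 smooth muscle genes. It was higher for 5, 4 and 10 of 15 endothelial, 4, 5 and 2 of 11 fibroblast, 5, 4 and 7 of 9 pericyte and 1, 3 and 8 of 14 epithelial and mesothelial genes. The part of these markers' cells in the pair differences was not tested. Over the 3 pairs together, 16 members were higher in every pair and 3 lower, against 27.2% and 28.2% of all genes tested. Of the 16, 12 were G1/S members.

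The median change was 0.16 for G1/S members and 0.19 for G2/M members, against -0.03 for all genes tested. Without both replicate 2 libraries the medians were 0.07 for G1/S and 0.03 for G2/M members, and the 3 members Mcm6, Tyms and Cdc25a were again called higher (9.62% of all genes tested). When 1 library was left out, the medians ran from -0.11 to 0.38 and from -0.33 to 0.65. With equal totals they were -0.02 and 0.02, against -0.20 for all genes. Of the 42 members, 32 had a positive change in the deposited values and 24 with equal totals; those that turned negative, none of them called, were Cdk2, Tk1, Ccne1, Ccna2, Ccnb2, Bub1b, Birc5 and Aurkb.

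Other genes of the same processes were taken from lists chosen by function. Of 62 further replication genes, 1 rose and 2 fell without the block, and 5 rose and 4 fell with it. With equal totals 0 rose and 4 fell without the block, and 2 rose and 14 fell with it. Orc2, a subunit of the origin recognition complex, stood at 858, 902 and 1110 in stimulated samples, against 668, 601 and 691 in controls, and rose by 0.54 ± 0.13 (limma adjusted p = 0.0335, and 0.0788 with equal totals). Opposite-strand exons of Nif3l1 overlap 29.8% of its exonic length. Msh6, a mismatch repair gene, stood at 733, 840 and 840 in stimulated samples, against 1148, 1018 and 1243 in controls, and fell by 0.50 ± 0.11 (limma adjusted p = 0.0301). The calls of Orc2 and Msh6 each held in only 1 of the 6 fits that left out a library. Of 70 further mitosis genes none passed without the block (1 had an unadjusted p under 0.05), and 4 rose and 2 fell with it. With equal totals 0 rose and 2 fell without the block (Pttg1 and Anp32e, of which Anp32e was named after its values were seen), and 0 rose and 6 fell with it. The balance of higher and lower calls thus depended on the scaling. The smallest p belonged to Pttg1, which encodes securin, at 672, 483 and 587 in stimulated samples, against 818, 713 and 722 in controls (limma adjusted p = 0.13, and 0.0242 with the block).

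Among 33 upstream regulators, 2 rose and 1 fell without the block, and 5 rose and 7 fell with it. With equal totals 1 rose and 4 fell without the block, and 2 rose and 12 fell with it. Myc, a growth-promoting transcription factor, stood at 1463, 2048 and 1769 in stimulated samples, against 750, 904 and 734 in controls, and rose by 1.14 ± 0.15 (limma adjusted p = 0.00492), a call kept when any 1 library was left out. E2f3, the third of the activating E2F genes, rose by 0.51 ± 0.11, with 1184, 1220 and 1288 in stimulated samples, against 897, 763 and 940 in controls (limma adjusted p = 0.0235, and 0.0597 with equal totals). Cdkn2c, which encodes the CDK4 and CDK6 inhibitor p18, stood at 288, 531 and 291 in stimulated samples, against 648, 1016 and 807 in controls, and fell by 1.19 ± 0.28 (limma adjusted p = 0.0332). When 1 library was left out, the limma adjusted p of Cdkn2c reached 0.131 and that of E2f3 0.106. The shares called on the replication, mitosis and regulator lists were 4.84%, 0% and 9.09% without the block, against 13.4% of all genes tested. With the block they were 14.5%, 8.57% and 36.4%, against 26.8%, so that the regulators lay below all genes in the unpaired fit and above them in the paired fit. With equal totals the shares were 6.45%, 2.86% and 15.2%, against 15.6%, and with equal totals and the block 25.8%, 8.57% and 42.4%, against 32%.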

How the data were processed

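RNA from 3 stimulated and 3 control samples was sequenced as stranded total RNA libraries, per the labels' protocols. The submitters' processing notes list DESeq2 1.18.1, featureCounts 1.6.3, STAR 2.6.1d and Trimmomatic 0.38, with mm10 and 2 names of a human build (GRCh38, hg38). The sources used here give no annotation release or strand setting. The deposited values are treated as a score, since they are scaled counts rounded to whole numbers. Scaling factors, estimated from the whole numbers that each column skips or doubles, were between 0.584 and 1.32. A factor under 1 merges counts, so reads were not recovered and no count model was used.

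Values were fitted as log2(value + 1) with limma 3.58.1 (R 4.3.3, intensity trend, treatment as the only term). The fit covered 21743 genes, leaving out 42 whose mean was under 1, with Benjamini-Hochberg adjustment. It was also run on simulated data, where pair effects, if present, were drawn separately for each gene. The G2/M members share 1 order of replicates, so the simulation does not cover their case. Intervals are 95% intervals from the same fits. Of the gene rows, 21747 matched GENCODE M21. In 13185 genes (mean 50 or more), same-numbered libraries departed from their group means together, with r of 0.747, 0.741 and 0.218. Samples were therefore also fitted as paired by number, although no label says what a number stands for. These r come from the same values as the fit with the block, which had 2 residual degrees of freedom (4 without the block). Control replicate 3 followed stimulated replicate 1 (r = 0.287) more closely than stimulated replicate 3, so the pairing of number 3 is weak. The other differently numbered r lay between -0.725 and 0.086. Calls made only with the block rest on this pairing. The alternatives were other scalings, pseudocounts and filters, limma-voom, the replicate block and leaving out libraries; fits with the block and without 1 pair were added after seeing the data. The members and gene lists were chosen with earlier results of these data known. All members may be named, with every library's value for members called in the unpaired or paired fit and for a fixed set of 8; of the other gene lists, up to 5 called genes each way with the smallest p are named, or 1 if none passed, except 1 gene that is not reported here. Values of further members were added for comparison within a complex or family.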

Additional observations from a re-analysis of the deposited data

How the results depend on the processing

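Over all genes 2905 were called (1873 higher, 1032 lower). Equal library totals gave 1135 higher and 2265 lower, upper-quartile factors 1420 and 1352, and limma-voom 1128 and 2252. Limma-voom was run with library totals as its scaling, so it shares the scaling of the equal-totals fit and is not a separate check on it. The 3 member calls, all G1/S, stayed 3 with relative log expression or upper-quartile factors, either pseudocount, either filter or without both replicate 2 libraries, and were 4 with equal totals or limma-voom. With the replicate block, for the pairing by number, 5837 genes, 9 members, 7 G1/S and 2 G2/M members were called; with equal totals and the block 6957 genes, 9 members, 8 G1/S members and 1 G2/M member. Without both replicate 1 libraries 83 genes and 0 members (0 G1/S) were called, and without both replicate 3 libraries 0 genes and 0 members (0 G1/S), where 4587 and 3252 genes had an unadjusted p under 0.05 by limma. Fits with the block that left out a pair had 304 genes and 1 member (pair 1), 869 genes and 1 member (pair 2) and 0 genes and 0 members (pair 3), the members being G1/S; with 4 libraries such fits have few degrees of freedom. When 1 library was left out, calls ran from 916 to 2341 genes, 1 to 3 members, 1 to 3 G1/S members and 0 to 0 G2/M members; they fell to 1 member without stimulated replicate 3, control replicate 1 or control replicate 3. The median change then ran from -0.11 to 0.38 for G1/S and from -0.33 to 0.65 for G2/M members.

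No called member changed direction under these alternatives. Without stimulated replicate 2 the 3 called members were Mcm6 and Tyms, higher, and Mcm7, lower. Among the 17 members followed through every alternative, uncalled values changed sign for Ccne1 (-0.17 with equal totals, with and without the replicate block, and with limma-voom; -0.074 with upper-quartile factors; -0.18 without both replicate 2 libraries, with and without the block), Top2a (-0.014 without both replicate 2 libraries, with and without the block) and Mcm2 (0.022 without both replicate 1 libraries, with and without the block). Leaving out 1 library gave -0.25 to 0.88 for Mki67, -0.35 to 0.73 for Top2a, -0.18 to 0.98 for Ccnb1, -0.18 to 0.58 for Cdk1, -0.14 to 0.16 for Ccne1 and -0.28 to 0.085 for Mcm2. With equal totals, 7 further uncalled members turned negative (Cdk2, Tk1, Ccna2, Ccnb2, Bub1b, Birc5 and Aurkb). The cause was not tested. Stimulated replicate 3 holds an estimated 54400000 reads, against 23300000 to 28000000 in the others, so its low values carry less counting error.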
